A study of Mus musculus with 3 samples.

Results

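Slc17a6 encodes VGLUT2, a vesicular glutamate transporter, and 211 of the 3692 barcodes with at least 500 detected genes in the E13.5 library (5.72%, exact 95% binomial interval 4.99% to 6.51%) were taken as Slc17a6 glutamatergic neuron-like. A barcode was taken when it held at least 1 unique molecular identifier (UMI, 1 counted transcript) of Slc17a6 and a UMI of at least 2 of the 6 neuronal genes Ina, Chl1, Rab3c, Scn3a, Mapt and Tmem163. It was left out when it held any UMI of Neurod6, Neurod2, Gad2 or Slc32a1. Of 458 barcodes with Slc17a6, 365 carried enough of the neuronal genes, and 154 of these carried an excluded gene, which left the 211. The members were thus chosen by their UMI counts of these 11 genes, whose levels describe the choice and are not results.

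The library was made from palatal shelves, the paired outgrowths that form the roof of the mouth, of E13.5 embryos of the mouse strain C57BL/6J, wild type. Tissue of 3 embryos was pooled, dissociated with TrypLE, fixed in methanol and run through 10x droplets. Libraries from E14.5 and E15.5 were made in the same way, 1 per stage, so there are no replicates and no test was possible: intervals below cover counting error only. Barcodes are cells of 1 pool, not replicates.

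Vesicular glutamate transporters load glutamate into synaptic vesicles and so mark excitatory neurons. Slc17a6 is known mainly from thalamic, hypothalamic, midbrain, hindbrain and sensory neurons, whereas Slc17a7 takes over in much of the cortex and Slc17a8 in small scattered groups. Developing neurons of these regions are told apart by combinations of homeodomain, LIM-homeodomain, bHLH and EBF transcription factors.

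The rule required Slc17a6 (chr7:51622006-51671119, plus strand, GRCm38, a protein-coding gene), which had 330 UMIs in the members, 419 CPM (UMIs per 1000000 UMIs of the group, 95% Poisson interval 375 to 467), with 126 members at 1 UMI, 60 at 2 and 25 at 3 or more, up to 5. The related transporter Slc17a7 had no UMI in the members, which allows up to 3.81 CPM, against 28.9 CPM in Neurod6 or Neurod2 barcodes, and Slc17a8 had 1 UMI. All 15 neuron-wide genes were detected. Stmn2, a microtubule regulator of growing axons, was at 1251 CPM, with a UMI in 80.3% of members thinned to 1500 UMIs (85.8% unthinned). In the 3 other groups of neuron-like barcodes compared below the thinned share was between 63.6% and 74.6% (74.9% to 79.2% unthinned). It was 14.45% in progenitor-gene barcodes and 14.6% in mesenchymal barcodes with few neuronal genes, both described next (29.0% and 21.7% unthinned). Map2, a dendritic microtubule protein, was at 1213 CPM, in 83.7% of thinned members (95.3% unthinned), in 68.7% to 79.0% of the neuron-like groups (80.0% to 90.9% unthinned), and in 42.8% and 17.2% of the last 2 (62.0% and 26.4% unthinned). Members and neuron-like groups had to hold at least 2 of the 6 neuronal genes and the last 2 groups fewer than 2, so this contrast follows in part from how the groups were drawn.

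Slc17a6 UMIs were also counted in barcodes drawn by progenitor or mesenchymal genes. In 200 barcodes with at least 2 of the progenitor genes Hes5, Sox2, Pax6 and Nes and fewer than 2 of the 6 neuronal genes (median 3084 UMIs), 6 Slc17a6 UMIs were found, and 3.00% of barcodes had one. In 509 barcodes with at least 3 of 6 mesenchymal genes (Col1a1, Col1a2, Col3a1, Pdgfra, Prrx1, Twist1) the share was 12.4%, but many of these also held neuronal RNA. In the 364 of them with fewer than 2 neuronal genes (median 2481.5 UMIs), a limit added after the data were seen, the share was 1.09% after thinning each barcode to 1500 UMIs and little more without. The members had a median of 2867 UMIs and 1619 genes, against 1933 UMIs and 1185 genes in the other 3481 barcodes.

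The mesenchymal gate matters for several results. It took 17 of the 211 members, with a median of 10832 UMIs against 2760.5 in the other 194, and they hold 164885 of the members' 787615 UMIs. Col1a1, a fibrillar collagen of mesenchyme, was at 80.0 CPM in all members and 9.63 CPM without the 17, and Col3a1 at 74.9 and 9.63 CPM. Summed over 9 mesenchymal genes the level was 402 CPM in all members, 101 CPM without the 17 and 746 CPM in the other barcodes. Whether such barcodes hold more than a single cell was not tested. An automatic doublet call marked no barcode of the library, and the 125 highest doublet scores held 8 members.

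The gate of mesenchymal genes took 509 of 3692 barcodes. It depends on depth, with a median of 3382 UMIs in the barcodes it took and 1987.5 UMIs in all 3692, of which 1342 had fewer than 1500, so the count does not give the share of mesenchymal cells. Whether brain tissue was taken along is not given in the sources used here, so the share of members is one of the library and not of the palate, and the regional lists below do not locate the cells. Just inside the rule were 54 members with exactly 2 of the 6 neuronal genes, and just outside 33 barcodes with 1 (median 2231 UMIs) and 25 with none. The 154 barcodes left out for an excluded gene had a median of 6918.5 UMIs and carried 284 of the 728 Slc17a6 UMIs in barcodes with at least 500 genes (39.0%); 111 of them held Neurod6 or Neurod2 and 89 held Gad2 or Slc32a1.

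Members were compared with 3 groups of the same library: all 3481 other barcodes, 77 Neurod6 or Neurod2 neuron-like barcodes (median 2853 UMIs) and 371 Gad2 or Slc32a1 neuron-like barcodes (median 3352 UMIs), the last 2 taken with the same neuronal genes and without Slc17a6. A further group, 450 neuronal barcodes with none of the 5 genes Slc17a6, Neurod6, Neurod2, Gad2 and Slc32a1 (median 2093.5 UMIs), was added after the data were seen and is called unmarked. UMIs were summed per group, the log2 ratio was taken with 1 CPM added, and a gene counted as higher or lower at 2-fold or more among genes with a mean of at least 20 CPM. The rule shaped each of these contrasts, so the counts describe the members and are not tests.

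Against all other barcodes the cell-cycle list was lower in members, at 592 CPM summed over its 18 genes against 1475 CPM. Of 7125 genes, 152 were higher (2.13%) and 252 lower (3.54%); without the 17 collagen-rich members the counts were 240 and 537 over the same genes, and 251 and 468 with the filter applied again. List counts without the 17 are over the same genes. Uncx, a homeodomain factor, was at 71.1 CPM (53.7 to 92.3) in members and 14.51 (12.28 to 17.04) in the others, a log2 ratio of 2.22. Syt13, a member of the synaptotagmin family, was at 97.8 against 17.9 CPM (2.38), and Nrn1, a secreted neurite-growth protein, at 112 against 26.6 CPM (2.03). All 152 higher genes had a counting interval of the ratio above 1. At these summed UMIs the 20 CPM and 2-fold limits already ensure this, so it gives the calls no further support.

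The ratio for Cartpt, the precursor of the CART neuropeptide, was the largest in this comparison at 3.24, yet its 71 UMIs came from 10 members, with 23 in a single barcode. Among members with at least 2 Slc17a6 UMIs it turned to -0.40. The sodium channel gene Scn2a was at 91.4 against 25.8 CPM (1.79) and the adhesion gene Opcml at 231 against 62.3 CPM (1.87), the last with 36 of its 182 UMIs in 1 member. By list, 6 of 21 adhesion genes were higher and 1 lower (9 higher and 2 lower without the 17), as were 1 of 5 sodium, 2 of 10 calcium and 2 of 15 potassium channel genes, with none of the channel genes lower. Of the 15 neuron-wide genes 2 were higher, and 8 without the 17. Over all genes tested in this comparison 2.13% were higher and 3.54% lower.

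Among genes lower in members than in the other barcodes, the smallest ratio was of Dlx6os1, an interneuron transcript (43.2 against 326 CPM, log2 ratio -2.89). Angpt1, a secreted vascular growth factor, was next (8.89 against 64.7 CPM, -2.73), followed by Dlx1, an interneuron factor (12.7 against 89.9 CPM, -2.73). Epcam, an epithelial adhesion gene, was at 20.3 against 97.7 CPM and Pax6, a progenitor and eye-field factor, at 14.0 against 66.1 CPM. Of 13 cell-cycle genes tested 11 were lower and none higher, where 3.54% of all genes tested were lower. Their median log2 ratio was -1.26, or -2.03 without the 17 with 12 lower, against -0.01 over all genes tested. A gene could pass the filter through the other barcodes alone, so this count and median are not read as a result. The 18 genes of the list summed to 408 CPM in members without the 17. In Neurod, Gad2 or Slc32a1 and unmarked barcodes they summed to 783, 808 and 894 CPM. Top2a, the topoisomerase of dividing cells, was at 160 CPM in members, 117 CPM without the 17, and 481 CPM in the others. Against Gad2 or Slc32a1 and against unmarked barcodes none of 11 tested cell-cycle genes was past 2-fold. Against Neurod barcodes 2 of 11 were lower and 1 higher. Without the 17 members 6, 7 and 6 were lower, in the same order.

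Lists of transcription factors known from brain regions were read next. In the thalamic list 4 of 8 tested genes were higher than in all other barcodes and 1 lower. Over all genes tested in this comparison 2.13% were higher and 3.54% lower, which holds for each list count against all others below. A gene could pass the filter through only the group where it was high, so these list counts are not tests. Tcf7l2, a WNT-pathway HMG factor known from thalamus, was at 1235 CPM (1159 to 1316) against 419 CPM (log2 ratio 1.56). Lhx9, a LIM-homeodomain factor, was at 116 CPM (93.0 to 142) against 29.5 CPM (26.3 to 33.0), and Gbx2, a homeodomain factor, had a log2 ratio of 2.04. Lhx2, a LIM-homeodomain factor, had a log2 ratio of 1.14, which became -0.04 when every barcode was thinned to 1500 UMIs and the rule applied again. Prox1, a homeodomain factor of the same list, was at 11.4 against 38.7 CPM.

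Tcf7l2 RNA was not confined to neuron-like barcodes. With each barcode thinned to 1500 UMIs, 43.3% of members (35.9% to 50.9%; 50.2% unthinned) had a Tcf7l2 UMI, against 35.02% of unmarked barcodes (29.6% to 40.7%), 12.7% of Neurod barcodes, 18.2% of Gad2 or Slc32a1 barcodes, 30.6% of progenitor-gene barcodes and 35.8% of the mesenchymal barcodes with few neuronal genes. For Lhx9 the thinned shares were 12.4% in members (7.91% to 18.1%; 26.1% unthinned), 9.76% in unmarked barcodes (6.64% to 13.7%), 7.94% in Neurod barcodes (2.63% to 17.6%), 2.51% in Gad2 or Slc32a1 barcodes, and 0 of 274 mesenchymal barcodes with few neuronal genes, with an exact interval up to 1.34%. Nhlh2, a bHLH factor of young neurons, was seen in 17.4% of members (12.2% to 23.8%; 33.2% unthinned), in 12.8% of unmarked barcodes (9.22% to 17.1%), in 7.94% of Neurod barcodes (2.63% to 17.6%), in 2.19% of Gad2 or Slc32a1 barcodes and in 0.730% of those mesenchymal barcodes. Lhx9 and Nhlh2 were thus near 0 in non-neuronal barcodes and Tcf7l2 was not, while the intervals of Lhx9 and Nhlh2 in members overlapped those in unmarked and Neurod barcodes.

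Of the 20 hypothalamic-list genes 6 were tested against all others, and 4 were higher and 2 lower. Sim1 passed the filter only through the members, so this count is not read as a result. Summed over the 20 genes the level was 428 CPM in members and 360 CPM in all others. It was 444 CPM in Gad2 or Slc32a1 barcodes and 444 CPM in unmarked barcodes. Sim1, a bHLH-PAS factor of hypothalamic neurons, was at 57.1 against 15.97 CPM (log2 ratio 1.78), and Lmx1a, a LIM-homeodomain factor, had a ratio of 1.76. Isl1, a LIM-homeodomain factor of many peripheral and hypothalamic neurons, was at 43.2 against 134 CPM (-1.61). In the list of Cajal-Retzius genes 5 of 9 were higher and none lower. Among them were Reln, the secreted glycoprotein of those cells (212 against 62.7 CPM, 1.74), and Calb2, a calcium-binding protein (39.4 against 7.40 CPM, 2.26). Of the 167 Reln UMIs 93 were in 1 member. Calb2 passed the filter only through the members, so this count is not read as a result. Summed over all 11 Cajal-Retzius genes the level was 2029 CPM in members and 1177 CPM in all others.

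Several region markers were absent, while others of the same lists were not. All 11 Hox genes listed were at 0 UMIs in the members, as were the autonomic genes Phox2a, Hand2 and Dbh, the sensory-neuron genes Tlx3 and Prrxl1, and the olfactory receptor neuron gene Omp. A count of 0 allows up to 3.81 CPM for each. Of 16 sensory-list genes 11 were detected, and the list summed to 273 CPM in members against 383 CPM in all others, with a UMI in 89 members. Of the 14 olfactory-list genes 4 were tested against all others and 3 were higher, and the list, which also holds Ebf2 and Lhx2, summed to 967 against 445 CPM, with a UMI in 142 members. En1, En2, Pax2, Pax7 and Pitx3 of the 15 midbrain-list factors were also at 0, and the other 10 were detected. The midbrain list summed to 138 CPM in members (151 CPM without the 17) against 88.8 CPM in all others, with Nr4a2, Lmx1b and Barhl2 among those seen, and 55 members had a UMI of at least 1 of its genes.

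**Figure D1:**
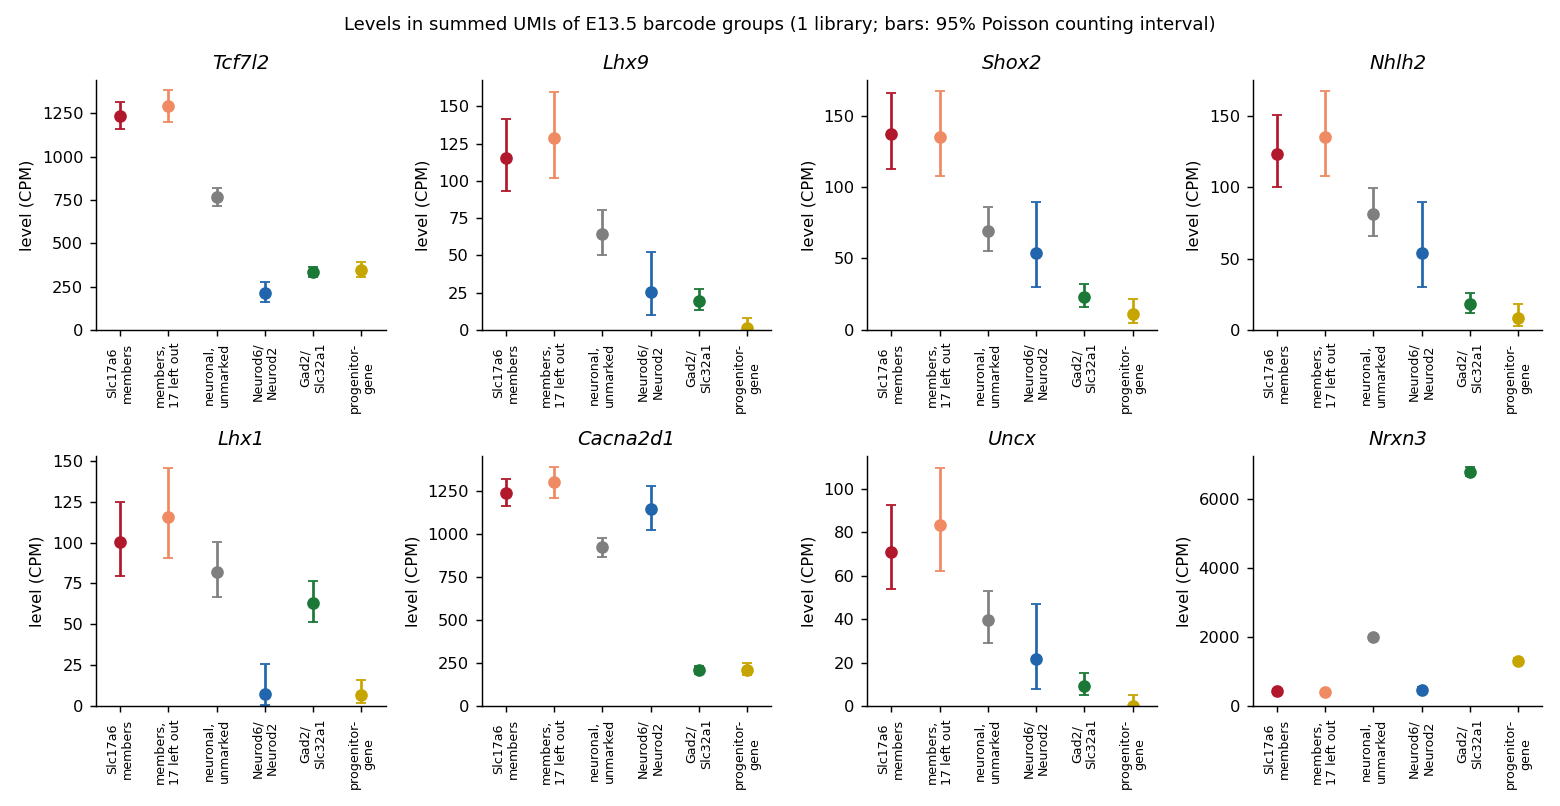
Levels (CPM) of 8 genes in the summed UMIs of 5 barcode groups of the E13.5 library and of the members without 17, with 95% Poisson intervals; the second point in each panel leaves out the 17 collagen-rich members. Tcf7l2, Lhx9, Shox2 and Nhlh2 are highest in the members, Cacna2d1 is at a like level in members and Neurod barcodes, and Nrxn3 is highest in Gad2 or Slc32a1 barcodes.

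The comparison with Neurod6 or Neurod2 barcodes set the members beside neuron-like barcodes drawn by genes known from cortical excitatory neurons. These barcodes were taken without Slc17a6, and 9.09% of them had a Slc17a7 UMI, so no transporter gene marks most of them as glutamatergic. Of 6845 genes tested, 410 were higher (5.99%) and 256 lower (3.74%); with a counting interval of the ratio that also left out 1, the counts were 279 (4.08%) and 198 (2.89%), since the 77 barcodes sum to only 277000 UMIs. In the thalamic list 6 of 7 genes were higher and none lower, with a median log2 ratio of 1.54 against 0.03 over all genes tested; without the 17 members 4 were higher, where over all these genes 396 were higher and 364 lower. In the cortical list none of 10 was higher and 6 were lower, with a median of -1.18; without the 17 members 8 were lower. Neurod6 and Neurod2 were themselves excluded by the rule, and the genes below were not. The reference was drawn by Neurod6 or Neurod2, so genes found with these can be lower in members through the choice of groups. A gene could also pass the filter through only the group where it was high. These list counts and medians thus describe the groups and are not tests.

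Tcf7l2 was at 1235 CPM in members and 213 CPM (162 to 275) in Neurod barcodes, a log2 ratio of 2.53. Lhx1, a LIM-homeodomain factor, had 79 UMIs in members (100 CPM, 79.4 to 125) and 2 in Neurod barcodes (7.22 CPM, 0.874 to 26.1). Car10, a carbonic anhydrase-related protein, had 49 UMIs in 21 members and none in Neurod barcodes, at least 5.74-fold higher against a floor of 3 counts in the group. Lhx9 was at 25.3 CPM in Neurod barcodes (log2 ratio 2.15), a direction that turned to -0.16 after thinning to 1500 UMIs. Fn1, fibronectin, also ranked among the highest, but its ratio of 2.97 became 1.94 without the 17 members and -2.40 after thinning.

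Of the 10 cortical-list genes tested, 6 were lower in members by 2-fold or more and 1 had a log2 ratio above 0. Nfib, a nuclear factor I gene, was at 402 CPM in members, 281 CPM without the 17, and 1736 CPM in Neurod barcodes (log2 ratio -2.11). Bcl11b was at 175 against 603 CPM (-1.78) and Tbr1, a T-box factor of deep-layer and other glutamatergic neurons, at 64.8 against 152 CPM (-1.21). Unc13c and Syn2, presynaptic genes, were at 11.4 against 130 CPM and 11.4 against 108 CPM, and Bhlhe22, a bHLH factor, at 14.0 against 119 CPM. Unc13c, Syn2 and Bhlhe22 passed the filter only through the Neurod barcodes.

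Axon guidance receptors differed in both directions from Neurod barcodes, 6 of 19 higher and 4 lower, with a list median of 0.16. The netrin receptor gene Unc5c was at 590 against 137 CPM (log2 ratio 2.10) and the Slit receptor gene Robo1 at 1819 against 495 CPM (1.88). Plxna4, a semaphorin co-receptor, was at 187 against 1141 CPM (-2.61) and Epha5, an ephrin receptor, at 475 against 1581 CPM (-1.73). Among glutamate receptor genes 5 of 14 were higher and 2 lower, where 5.99% of all genes tested were higher and 3.74% lower. Grm7 and Grm8, presynaptic metabotropic receptors, had ratios of 2.50 and 2.47, while Gria3, an AMPA receptor subunit, had -1.75. The general neuronal list did not differ by 2-fold in either direction for any of its 15 genes, with a median of 0.07.

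Against Gad2 or Slc32a1 barcodes, 113 of 6973 genes were higher (1.62%) and 103 lower (1.48%). Without the 17 members the counts were 121 and 255 over the same genes, and 216 were lower with the filter applied again. The 11 genes of the GABA-neuron list summed to 178 CPM in members, 1253 CPM in Gad2 or Slc32a1 barcodes, 442 CPM in unmarked barcodes and 130 CPM in Neurod barcodes. Most of them passed the filter only through the Gad2 or Slc32a1 barcodes, so no count or median is read from the list. Dlx5, a distal-less factor of interneurons, had 2 UMIs in members (2.54 CPM) and 102 in Gad2 or Slc32a1 barcodes (63.8 CPM), and Gad1, a GABA-synthesis enzyme, 9 UMIs (11.4 CPM) against 178 (111 CPM). Gad2 and Slc32a1 were excluded by the rule, and Gad1 and the Dlx genes were not. The reference was drawn by Gad2 or Slc32a1, so genes found with these can be lower in members through the choice of groups.

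Counts of adhesion and channel genes past 2-fold stand beside the shares over all genes tested in this contrast, 1.62% higher and 1.48% lower. Of 20 adhesion genes 4 were higher and 1 lower, of 11 calcium channel genes 1 and 1, of 15 potassium channel genes 2 and 1, and of 5 sodium channel genes 1 and none. Nrxn3, a presynaptic neurexin, was at 452 CPM in members and 6778 CPM in Gad2 or Slc32a1 barcodes (log2 ratio -3.90). Against Neurod barcodes the ratio of Nrxn3 was -0.02. Cacna2d1, an auxiliary calcium channel subunit, was at 1237 CPM (1160 to 1317) against 209 CPM (188 to 233), a ratio of 2.56, and had a UMI in 82.5% of members. Its relative Cacna2d3 was at 122 against 383 CPM (-1.64). Cntn2, an axonal contactin, was at 69.8 against 13.8 CPM (2.26).

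Several transcription factors were among the highest ratios to Gad2 or Slc32a1 barcodes. Tbr1 had a log2 ratio of 3.06, Neurod1, a bHLH differentiation factor, 3.01, Nhlh2 2.70, Uncx 2.80, Lhx9 2.52 and Shox2, a short-stature homeobox factor, 2.52. Of 10 Cajal-Retzius genes 6 were higher and none lower, and of 8 thalamic genes 4 were higher and 1 lower. Over all genes tested in this contrast 1.62% were higher and 1.48% lower. Genes could pass the filter through the members alone, so these list counts are not tests. Tbr1 was therefore lower in members than in Neurod barcodes and higher than in Gad2 or Slc32a1 barcodes. Shox2 also occurred in non-neuronal barcodes, with a thinned share of 12.9% in members (19.0% unthinned) and 7.30% in the mesenchymal barcodes with few neuronal genes.

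**Figure D2:**
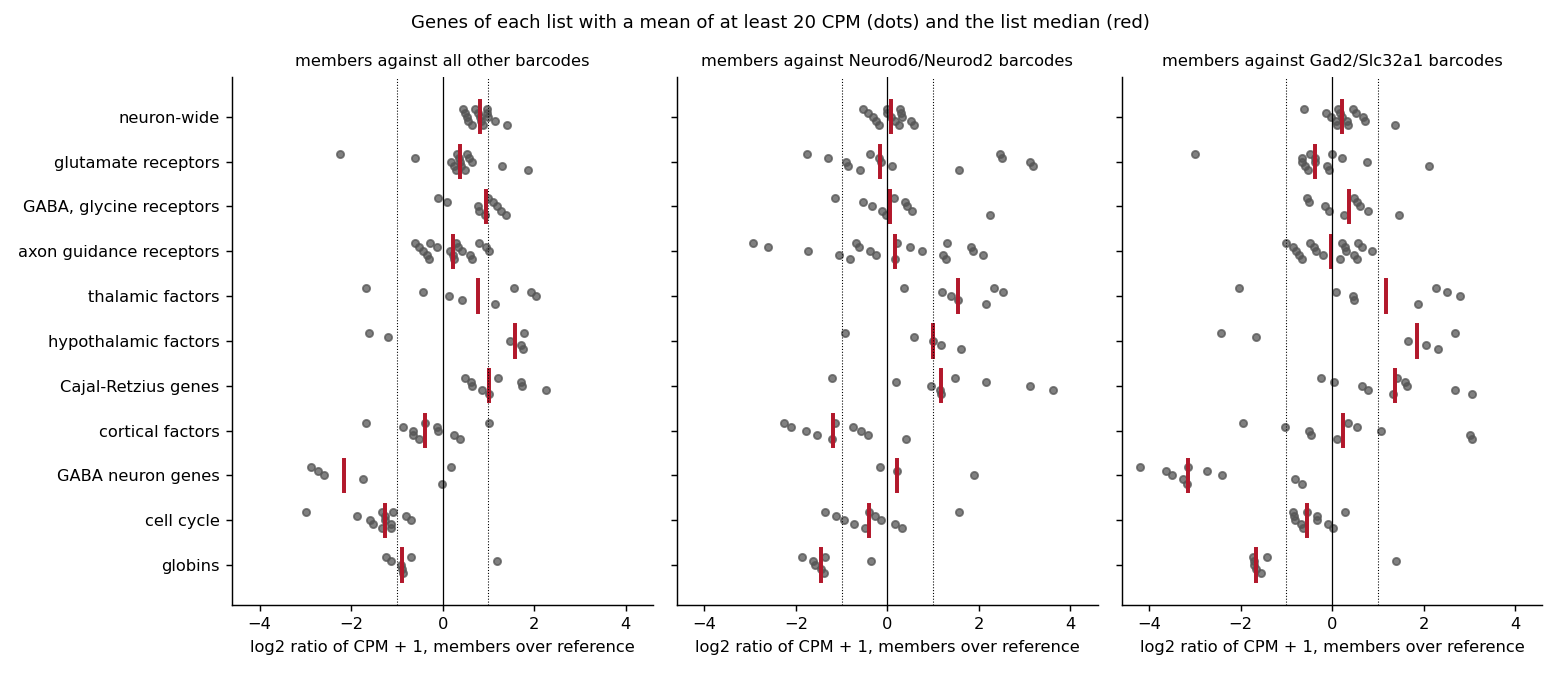
Log2 ratios (members over reference, CPM with 1 added) of the genes of 11 lists against 3 reference groups of the E13.5 library; each dot is a gene with a mean of at least 20 CPM, red bars are list medians and dotted lines mark 2-fold. Of the thalamic factors 6 of 8 lie right of 0 against all others and 7 of 7 against Neurod barcodes. Of the cortical factors 9 of 10 lie left of 0 against Neurod barcodes. The GABA-neuron genes shown against Gad2 or Slc32a1 barcodes passed the filter mostly through those barcodes.

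At the 20 CPM filter the unmarked neuronal barcodes gave the fewest genes past 2-fold of the 4 reference groups. A missing Slc17a6 UMI does not show that a cell lacks the transcript. Of the members, 126 held only 1 Slc17a6 UMI, and 58.4% of those thinned to 1500 UMIs kept one. The unmarked barcodes were also shallower, with a median of 2093.5 UMIs against 2867. Whether they hold the same kind of cell as the members was not tested. Of 6978 genes tested against unmarked barcodes, 51 were higher (0.731%) and 51 lower (0.731%). Without the 17 members the counts were 63 and 207 over the same genes, and 160 were lower with the filter applied again. The regional list counts below stand beside 0.731% of all genes higher and 0.731% lower, and a median log2 ratio of 0.01 over all genes tested. In the thalamic list none of 8 tested genes was higher and 1 was lower (median log2 ratio 0.56), in the hypothalamic list 1 of 5 was higher and 1 lower (0.59), in the Cajal-Retzius list 1 of 10 was higher and none lower (0.47), and in the olfactory list none of 4 was past 2-fold. Tcf7l2 was at 764 CPM in unmarked barcodes, between the members and the marked groups, and Lhx9 at 64.1 CPM. Gnrh1, the precursor of gonadotropin-releasing hormone, had 193 UMIs in unmarked barcodes (167 CPM) and none in members, at least 43.9-fold lower against a floor of 3 counts in the group. Hbb-bh1, an embryonic globin, was at 82.5 against 21.6 CPM, but 54 of its 65 UMIs came from 1 member, and the log2 ratio of 1.88 became -0.41 without the 17.

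Globin RNA, carried by red blood cells, was common: Hba-a1 had a UMI in 159 of the members (75.4%). Summed over 7 globin genes it was 7497 CPM in members, 3872 CPM without the 17, 20516 CPM in Neurod barcodes, 23630 CPM in Gad2 or Slc32a1 barcodes and 14079 CPM in all others. The part of these differences in the ratios above was not tested.

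The members were not uniform. Of the transcription factors in the regional lists, 31 had a UMI in at least 5% of members, from Ebf1 (52.1%) and Tcf7l2 (50.2%) to Lmx1a and Barhl2 (5.69% each). Several were as frequent in the mesenchymal barcodes with few neuronal genes: after thinning, Ebf1 was in 40.4% of members and 51.8% of those, Foxp2 in 37.6% and 137 of 274, Rora in 21.3% and 58.0%, Ebf2 in 15.7% and 23.4%, and Ebf3 in 22.5% and 22.3%. Unthinned, the shares in members and in those barcodes were 52.1% and 62.6% for Ebf1, 45.5% and 58.8% for Foxp2, and 34.1% and 70.1% for Rora. Co-detection was counted after thinning to 1500 UMIs, which kept 178 members and left out 33 shallower ones. Of 465 pairs, 77 were expected in at least 5 members from the product of their shares. The number seen together is given beside that product as a description.

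Among these 77 pairs the largest ratio to the product was for Ebf2 and Ebf3, related EBF factors, seen together in 18 members where the product of shares gave 6.29. Nfia and Nfib followed with 26 against 10.2, and Tcf7l2 with Lhx9 with 20 against 9.52. Of the 22 thinned members with Lhx9, 20 thus had Tcf7l2. The smallest ratios among the 77 were for Lhx1, which was seen with Ebf1 in 1 member against 6.88, with Foxp2 in 1 against 6.399 and with Tcf7l2 in 2 against 7.35. Without thinning and without the 17 members, Tcf7l2 and Lhx9 met in 39 of 194 against 22.9, and Tcf7l2 and Lhx1 in 4 against 13.3. In the same way Lhx1 met Ebf1 in 7 members against 14.2 and Foxp2 in 5 against 11.96, deficits less deep than after thinning, and Ebf2 met Ebf3 in 28 against 12.8.

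**Figure D3:**
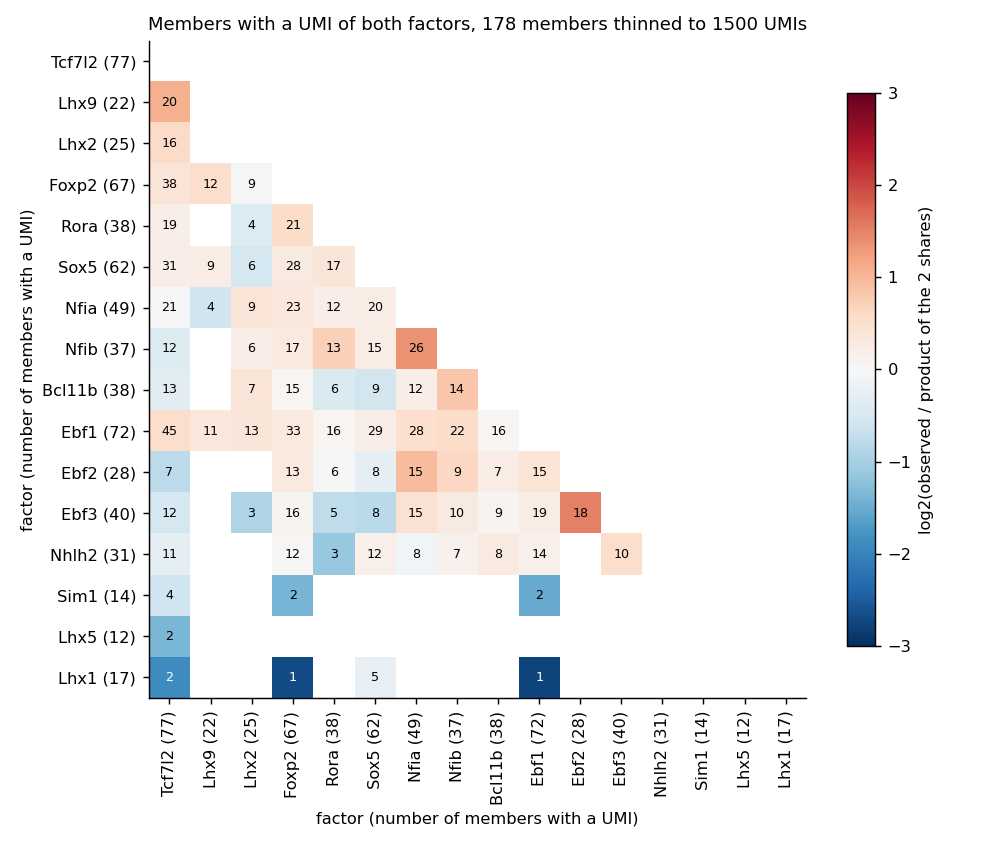
Number of members with a UMI of both transcription factors (figures in the cells) and its log2 ratio to the product of the 2 shares (colour), over 178 members thinned to 1500 UMIs; only pairs with a product of at least 5 members are filled, and the number of members with each factor stands in brackets. Tcf7l2 with Lhx9, Nfia with Nfib and Ebf2 with Ebf3 are red, and the Lhx1 row is blue for Tcf7l2, Foxp2 and Ebf1.

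Splitting the 194 members outside the mesenchymal gate by single factors drew out sets of genes. The genes named here were chosen after their values were seen, mostly among the largest ratios with a UMI in at least 5 members of the higher side. The 89 members with Tcf7l2 had a median of 3000 UMIs and the 105 without it 2576 UMIs. Slc17a6 itself was at 472 CPM with and 510 CPM without Tcf7l2.

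Most UMIs of Shox2 and Gbx2 were in members with Tcf7l2. Shox2 had 82 UMIs in 33 of 89 members with Tcf7l2 (270 CPM) and 2 UMIs in 2 of 105 without it (6.26 CPM). Gbx2 was seen in 20 of 89 and in 0 of 105, which allows up to 2.86% of barcodes with a UMI and, at this depth, sets no limit on cells that express it. After thinning, 21 of 23 members with Shox2 and 11 of 11 with Gbx2 had Tcf7l2. Lhx9 was at 201 against 59.5 CPM and Lhx2 at 195 against 50.1 CPM, and Rnf220, a ubiquitin ligase, at 603 against 43.8 CPM. Syt13 was found in 33 members with Tcf7l2 and 6 without, at 191 against 18.8 CPM.

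A second set centred on Lhx1. The 29 members with Lhx1 held Lhx5, its close relative, in 7 against 6 of the 165 without (84.3 against 13.3 CPM), and Rspo3, a secreted WNT amplifier, in 15 against 17 (516 against 73.9 CPM). Reln was at 1127 against 106 CPM but rested on 8 members with Lhx1, 1 of which held 93 of their 107 UMIs. Shox2 and Gbx2 were at 0 in members with Lhx1, which allows up to 10.3% of barcodes with a UMI. Uncx was found in 9 of 13 members with Lhx5, where the product of shares gave 2.01.

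Another, small set carried Lmx1b, a LIM-homeodomain factor, in 13 members with a median of 2576 UMIs. Lmx1a was seen in 7 of these 13 and in 2 of 181 others (558 against 3.40 CPM). Nxph1, a neurexin ligand, was at 2557 against 265 CPM and found in 10 of 13. Ebf2 was at 823 against 185 CPM. Tcf7l2 was in 0 of these 13 and in 89 of the other 181; 0 of 13 allows up to 23.1% of barcodes with a UMI. Among all thinned members, the collagen-rich ones included, 1 of 10 with Lmx1b had Tcf7l2, where the product of shares gave 4.33, and Lmx1a and Lmx1b met in 5 members against 0.393.

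Sim1 marked 23 members, of which 6 had Tcf7l2, where the product of shares gave 10.6. Cartpt was at 586 CPM in members with Sim1 and 30.2 CPM without, from 5 and 4 barcodes.

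**Figure D4:**
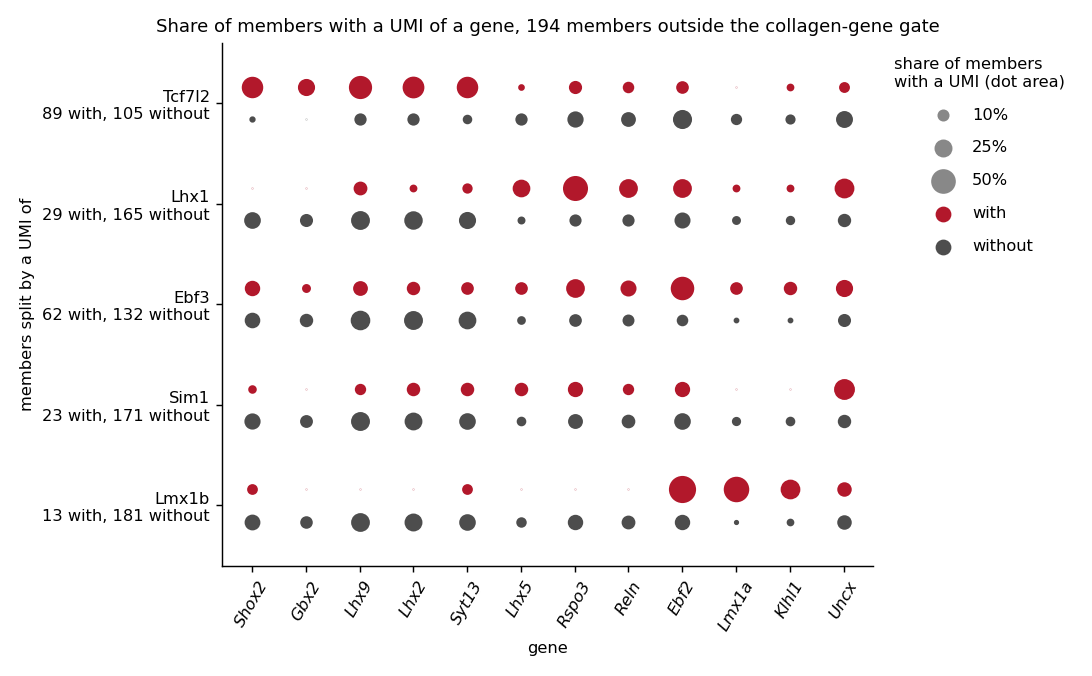
Share of members with a UMI of each gene (dot area) among the members outside the mesenchymal gate, for members with (red) and without (grey) a UMI of 5 transcription factors. Shox2 and Gbx2 lie almost wholly with Tcf7l2, Lhx5 and Rspo3 are larger with Lhx1, and Lmx1a and Klhl1 are larger with Lmx1b, where Tcf7l2-associated Gbx2, Lhx9 and Lhx2 are empty.

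Few barcodes met the same rule later: 6 of 1775 at E14.5 (0.338%, 0.124% to 0.734%) and 13 of 2640 at E15.5 (0.492%, 0.262% to 0.841%). Over the whole libraries Slc17a6 was at 64.2 CPM in the E13.5 library, 4.34 CPM a day later and 3.73 CPM in the last. In these few barcodes Lhx9 and Sim1 were at 0, which allows up to 26.2 CPM at E14.5 and 28.0 CPM at E15.5, and Tcf7l2 was at 463 CPM and 308 CPM. Other factors were at or above the level in the members at 1 or both stages. Lhx2 was at 148 and 420 CPM against 107 CPM in the members, Ebf1 at 2426 and 4689 against 956 CPM, and Ebf2 at 785 and 1270 against 234 CPM. Nhlh2 was at 0 at E14.5 and at 140 CPM at E15.5, against 123 CPM. Prph, the peripherin of peripheral neurons, was at 131 and 187 CPM, against 1.27 CPM (1 UMI) in the members. With 1 library per stage, stage and dissection cannot be told apart. The libraries share 5 barcode sequences over all pairs, and none of these is a member.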

How the data were processed

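Single-cell RNA was measured by 10x Genomics droplets. The authors deposited raw UMI counts per gene and barcode, made with Cell Ranger 6.1.2 on mm10, per the submitters' processing notes; the annotation is not given in the sources used here. Here barcodes with at least 500 genes were kept (3692 of 4236 at E13.5, 11472663 UMIs in all), no doublets were removed, and UMIs were summed per group with no model or test (numpy 2.4.6, scipy 1.17.1, scanpy 1.11.5 for doublet scores). Genes needed a mean of 20 CPM over the 2 groups. Poisson, binomial and ratio intervals are exact at 95%. Shares were thinned to 1500 UMIs. The comparison script was tested on simulated data. Coordinates are from GENCODE M21, which matched 32235 of 32285 gene IDs.

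The members, gene lists and tests were chosen with earlier results of these data known. Named genes were the 10 largest and 10 smallest ratios with at least 50 CPM in the higher group, the 3 largest and smallest of each list, the 11 rule genes, Slc17a7 and Slc17a8. Other genes given with values were chosen after their values were seen, among them Map2, Ebf3, Lmx1b, Prph, Rnf220, Rspo3 and Nxph1. Lists of epithelial, endothelial, myeloid, glial, muscle, pituitary, retinal, stress, neuropeptide and other transmitter genes were measured too. Some genes are not reported here.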

Additional observations from a re-analysis of the deposited data

How the results depend on the processing

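There was 1 library per stage, so no spread between embryos is known and depth limits low genes: 1 UMI is 1.27 CPM in the members. No paired analysis was possible because there are no replicates. The share of members, 5.72%, was 7.69% at 1000 genes or more, 2.30% with at least 2 Slc17a6 UMIs, 4.25% with 3 of the 6 neuronal genes, 3.92% after thinning to 1500 UMIs and 9.89% with the excluded genes allowed. Counts of genes are given as higher and lower, first against all others. They were 471 and 713 thinned, 934 and 2174 with no filter, 79 and 85 at 50 CPM, 292 and 414 as means over barcodes, and 251 and 468 without the 17 collagen-rich members. Against Neurod barcodes they were 922 and 762 thinned, 4183 and 1892 with no filter and 143 and 90 at 50 CPM, and 404 were lower as means over barcodes. Against Gad2 or Slc32a1 barcodes they were 173 and 179 with at least 2 Slc17a6 UMIs, 625 and 581 thinned, 1734 and 1840 with no filter and 47 and 40 at 50 CPM; 175 were higher as means over barcodes and 216 lower without the 17. Against unmarked barcodes they were 112 and 134 with at least 2 Slc17a6 UMIs, 364 and 424 thinned, 31 and 33 with 5 CPM added, 1664 and 1461 with no filter, 12 and 10 at 50 CPM and 89 and 85 as means over barcodes; 83 were lower at 1000 genes or more, 84 higher with 3 of the 6 genes and 160 lower without the 17. Thinning also left fewer barcodes; the other causes were not tested.

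Directions turned for 27 of 5482 values. A turn was counted only for a value of 2-fold or more in the main setting, so smaller values that changed sign are not among the 27. A further 617 values moved without a counted turn. Thinning alone moved 295 of 679 values and turned 14. With 3 of the 6 genes Gm29478 against unmarked barcodes was 0.35. With at least 2 Slc17a6 UMIs Cartpt was -0.40 against all others and -1.50 against Neurod barcodes, and Hbb-bh1 -1.03, -0.66 and -0.18 against all others, Gad2 or Slc32a1 and unmarked barcodes. Thinned, Hbb-bh1 was -0.083 and Lhx2 -0.037 against all others. Thinned against Neurod barcodes, Cntn6 was 3.95, Dlx6os1 -1.52, Fn1 -2.40, Grik1 -0.54, Hbb-bh1 0.58, Kcnmb2 -0.54, Lhx9 -0.16, Nalcn -3.92, Nrp1 -0.16 and Pkp1 3.04, and against unmarked barcodes Cdh13 was -0.22 and Il1rapl2 -1.06. As means over barcodes Cntn6 against Neurod barcodes was 0.038. Without the 17, Hbb-bh1 was -1.11, -0.89 and -0.41 against all others, Gad2 or Slc32a1 and unmarked barcodes, Col1a2 and Col3a1 were -0.61 and -1.80 against Neurod barcodes, and Col1a1 -1.78 against unmarked barcodes. The setting without the 17 was chosen after seeing the data.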

Other observations

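Genes of other cell types were summed by list. Levels in members and in all other barcodes were 36.8 and 159.5 CPM for 7 epithelial genes, 7.62 and 21.2 CPM for 5 endothelial genes, and 8.89 and 57.3 CPM for 6 myeloid genes. They were 16.5 and 23.9 CPM for 6 glial genes, 5.08 and 25.9 CPM for 5 muscle genes and 27.9 and 39.0 CPM for 9 pituitary genes, which were lower, at 10.8 to 18.8 CPM, in the Neurod, the Gad2 or Slc32a1 and the unmarked barcodes. Of 24 neuropeptide genes 14 had no UMI in the members, among them Sst, Npy and Trh. Of 13 genes of other transmitters 7 had none, among them Chat, the acetylcholine-synthesis enzyme.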
